A study of Homo sapiens with 6 samples.

Results

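The transcripts of 35 aminoacyl-tRNA synthetase genes were followed in CFPAC1 cells, a line from a human pancreatic ductal adenocarcinoma, with and without an edit aimed at the transcription factor gene IRF1. The genes were taken by name from a list of 19 cytosolic and 16 mitochondrial enzymes, out of 19402 genes in the count table. The list was drawn up with earlier results of these data known, so its contrasts are not independent evidence. The list is not the complete family. In this design WARS1, the cytosolic tryptophanyl-tRNA synthetase, was compared with the other 34 enzymes.

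There were 6 libraries of poly(A)-selected RNA. The WT group consisted of 3 pools of clones isolated by dilution of CFPAC1 cells that had been infected with lentiCRIPSv2 (spelled as in the labels), a plasmid for which the labels of these pools name no guide. The IRF1-KO group consisted of 3 pools of clones isolated in the same way from cells infected with that plasmid carrying wild-type Cas9 and a guide RNA against IRF1. The labels name no interferon or other agent for either group, so induction of a gene by interferon was not measured here. Each library is a pool of clones, and neither the number of clones nor whether the pools were grown on separate occasions is given. The p-values below therefore measure the spread between these pools.

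Aminoacyl-tRNA synthetases join each amino acid to its tRNA and so supply the ribosome. Most amino acids have one enzyme for the cytosol and another, encoded by a separate nuclear gene, for the mitochondrion. Class I and class II enzymes have unrelated catalytic folds, and several cytosolic ones sit together in the multi-synthetase complex. WARS1 is known as the family member whose transcript is strongly induced by interferon-gamma. Interferon-gamma acts in part through IRF1, which binds ISRE-type elements, and GAS elements are another class of sequence found near genes it induces.

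The sequences just before the transcription start sites are shown first, because IRF1 belongs to a family of factors with a known DNA motif. RefSeq promoter windows (GRCh38.p14), from 250 bases before to 50 bases after an annotated start site, were found for 30 of the 35 genes. LARS1, VARS1, YARS1, AARS2 and VARS2 had none in the table used. The windows were searched on both strands for an ISRE-type pattern, GAAANNGAAA, and for a GAS-type pattern, TTCNNNGAA. A further pattern, TGATGNAA, is of the CARE type bound by ATF4, the transcription factor of the amino acid response. The 250 bases before the start site are printed 5′ to 3′ on the gene's strand, and capitals mark the ISRE-type and GAS-type matches. WARS1 has 2 windows. The one at chr14:100375348-100375597 (minus strand) belongs to the downstream start site, and the one at chr14:100376328-100376577 (minus strand) belongs to the upstream start site. WARS2, its mitochondrial counterpart, is shown at chr1:119140654-119140903 (minus strand). EARS2, the other synthetase with an ISRE-type match, is shown at chr16:23557351-23557600 (minus strand).
WARS1 downstream start site: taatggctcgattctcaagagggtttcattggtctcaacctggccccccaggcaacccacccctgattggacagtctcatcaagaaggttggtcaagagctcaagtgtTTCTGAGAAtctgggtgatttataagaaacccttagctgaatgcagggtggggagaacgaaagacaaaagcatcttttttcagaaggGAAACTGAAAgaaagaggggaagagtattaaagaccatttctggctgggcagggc
WARS1 upstream start site: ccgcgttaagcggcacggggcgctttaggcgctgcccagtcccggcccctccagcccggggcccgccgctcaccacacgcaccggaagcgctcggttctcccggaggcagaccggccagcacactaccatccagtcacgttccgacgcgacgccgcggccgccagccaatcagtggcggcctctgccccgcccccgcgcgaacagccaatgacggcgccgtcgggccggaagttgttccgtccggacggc
WARS2: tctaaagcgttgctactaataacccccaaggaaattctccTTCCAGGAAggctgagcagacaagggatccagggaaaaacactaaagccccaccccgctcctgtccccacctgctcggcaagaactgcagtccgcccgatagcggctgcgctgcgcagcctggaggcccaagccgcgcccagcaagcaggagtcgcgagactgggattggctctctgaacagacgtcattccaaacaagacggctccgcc
EARS2: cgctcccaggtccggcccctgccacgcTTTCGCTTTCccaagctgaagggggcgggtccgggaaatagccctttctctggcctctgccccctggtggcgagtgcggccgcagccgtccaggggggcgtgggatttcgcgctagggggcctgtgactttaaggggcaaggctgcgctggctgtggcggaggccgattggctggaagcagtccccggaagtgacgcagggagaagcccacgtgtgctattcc

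The downstream WARS1 window held both patterns. Its ISRE-type match began 55 bases before the start site and its GAS-type match began 142 bases before it, with no bases shared between them. The upstream WARS1 window held neither. In EARS2 the ISRE-type match lay on the reverse strand, in both of its overlapping windows. An ISRE-type match was present in 3.57% of 35116 RefSeq windows and in 4.38% of 27305 genes. It was present in 2 of 30 synthetase genes, WARS1 and EARS2 (6.67%), and in 21 of 26 interferon-gamma-induced genes with a window (80.8%). The interferon-gamma list was drawn up with results of these libraries known, so its shares are not an independent reference.

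GAS-type matches were found in 7.66% of all windows and in 9.38% of genes. They were found in 5 of 30 synthetase genes (16.7%), namely CARS1, PARS2, TARS1, WARS1 and WARS2, and in 8 of 26 interferon-gamma-induced genes (30.8%). CARE-type matches were found in 3.62% of all windows and in 4.46% of genes. They were found in 8 of 30 synthetase genes (26.7%): AARS1, CARS1, GARS1, IARS1, MARS1, NARS1, TARS1 and YARS2. Of the 26 interferon-gamma-induced genes, 1 had a CARE-type match (3.85%). These matches describe letters in a window and show no binding.

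Total counts ranged from 16413682 to 28258075 per library, and 13388 genes passed the filter on low counts. All 35 synthetases passed, with 71 to 7266 counts per library. The targeted gene, IRF1, had 87.3, 91.3 and 82.6 CPM (counts scaled to library size with TMM factors) in the WT libraries and 117, 124 and 132 in those labelled IRF1-KO. It was thus higher, not lower, in every library labelled IRF1-KO (a log2 difference of 0.51 ± 0.10, SE, with an edgeR adjusted p of 0.135). Counts over all exons do not show whether an edit disrupted the protein, and every direction below is that of the libraries as labelled. Ductal and epithelial markers were abundant, with summed levels over 11 genes of 4674 to 8457 CPM (WT) and 5360 to 7270 CPM (IRF1-KO). KRT8, KRT18, KRT19 and EPCAM were high in every library, whereas CFTR had at most 0.66 CPM. MUC1, a mucin gene whose transcript has 71.3% GC, had the lowest log2 fold change of the tested genes of this list. It was at 396, 532 and 131 CPM across the WT libraries and 88.3, 197 and 168 across the IRF1-KO libraries, with overlap (−1.22 ± 0.53, SE; adjusted p = 0.553 with edgeR; −2.32 with an offset for GC content and −0.80 without WT replicate 2). Sums over 8 leukocyte markers were 29.4 to 78.2 CPM (WT) and 16.9 to 28.2 CPM (IRF1-KO), mostly from LYZ. LYZ, encoding lysozyme, was lower in every IRF1-KO library (−1.09 ± 0.45; adjusted p = 0.535 with edgeR; −0.43 without WT replicate 2). PTPRC, the defining leukocyte marker, had at most 0.12 CPM, and FCGR3A was at 0 in all 6 libraries. The libraries are labelled as pools of clones of CFPAC1 cells, and the source of the LYZ transcript was not tested. Over 8 fibroblast and endothelial markers the sums were 33.4 to 51.4 and 35.8 to 77.3 CPM, mostly from COL1A1, with DCN at 0 in the WT libraries. COL1A1, a collagen gene, overlapped between groups (0.67 ± 0.33; adjusted p = 0.616 with edgeR; 0.40 without IRF1-KO replicate 2). Unadjusted, LYZ alone of the 17 tested marker genes was at a p under 0.05, and DESeq2 called none.

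WARS1 (ENSG00000140105.18; GRCh38 chromosome 14, 100333790 to 100376805, minus strand) had the lowest log2 fold change of the 35 genes. It was at 309, 376 and 349 CPM across WT replicates 1 to 3 and at 224, 208 and 158 across IRF1-KO replicates 1 to 3. All 3 IRF1-KO libraries lay below all 3 WT libraries, and IRF1-KO replicate 3 was the lowest. The means were 345 ± 33.7 (WT) and 197 ± 34.3 CPM (IRF1-KO; SD, n = 3 each), a level 1.76-fold lower in the fit. The fitted log2 fold change was −0.81 ± 0.16 (SE), with a 95% interval from −1.17 to −0.45. In bulk RNA, fewer cells that express a gene and less RNA per cell cannot be told apart.

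This difference did not pass the threshold on which the comparison was based. With edgeR's quasi-likelihood test the p-value was 0.000912 and the Benjamini-Hochberg adjusted p was 0.134. No synthetase was past an adjusted p of 0.05 in that fit, where 17 of 13388 tested genes were (0.127%). No tested synthetase was among the 15 lower (0.112%) or 2 higher genes (0.0149%). Without adjustment WARS1 was below and EARS2 above at a p of 0.05, 2 of 35 members beside 9.14% of all tested genes, of which 3.75% were lower and 5.39% higher. DESeq2 called WARS1 alone among the 35 (log2 fold change −0.81, adjusted p = 0.000236), and it called 332 genes in all (2.48%), 0.964% lower and 1.52% higher. Over the 15 alternative settings the adjusted p of WARS1 ranged from 0.000236 to 0.442, and only DESeq2 gave one under 0.05. Of all tested genes, 0.665% had an edgeR p at or below that of WARS1 and 2.67% had a log2 fold change at or below it.

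**Figure D1:**
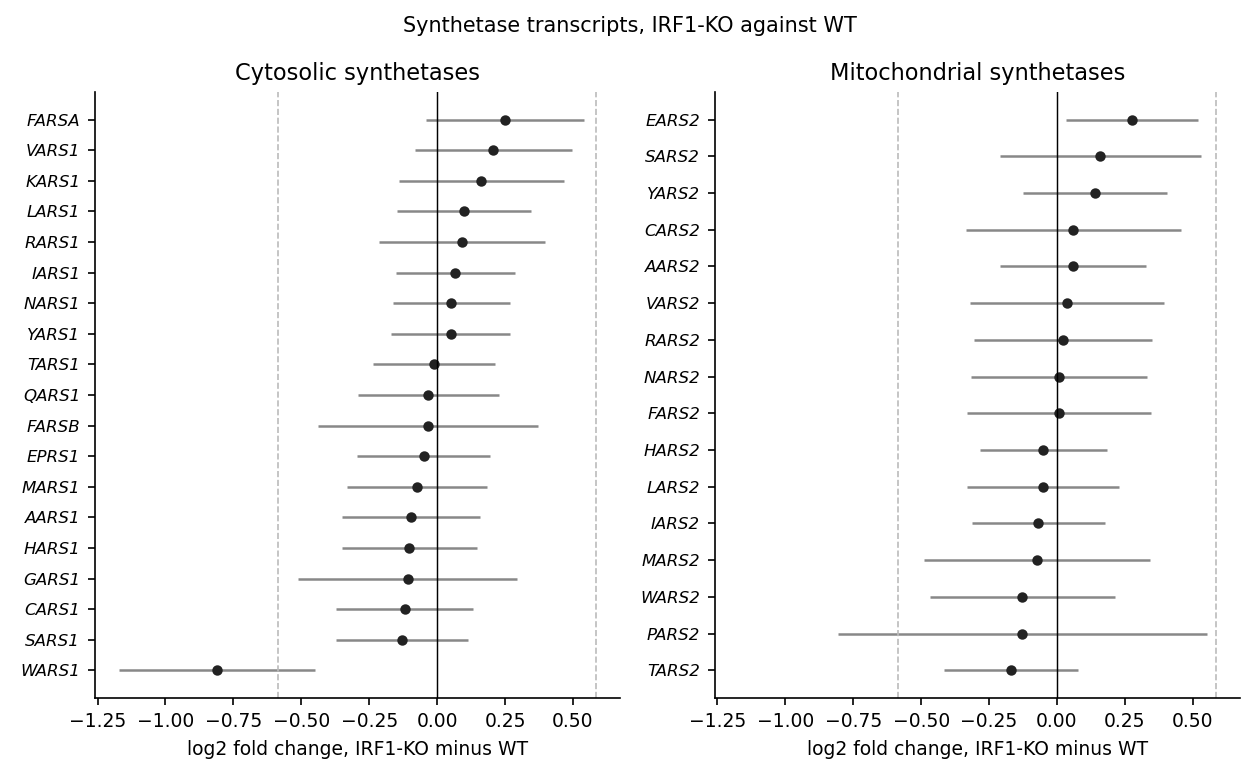
Log2 fold change of each of the 35 synthetase transcripts, IRF1-KO against WT, with its 95% interval (edgeR, 3 libraries per group), with dashed lines at a 1.5-fold difference and cytosolic and mitochondrial enzymes in separate panels. WARS1 lies at −0.81, and the other 34 lie between −0.17 and 0.28.

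The other 34 synthetases showed small differences on both sides of zero. Their median log2 fold change was −0.0020, beside −0.0175 over all tested genes, and 17 were positive and 17 negative. Their values ranged from −0.17 for TARS2 to 0.28 for EARS2. The median absolute log2 fold change was 0.0730, beside 0.152 over all tested genes. None was past the adjusted threshold in edgeR, in DESeq2 or in any of the other 14 alternatives, and the smallest adjusted p that any of them reached was 0.357.

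The intervals show how large a difference the 6 libraries leave room for. For 33 of the 34 genes the 95% interval lay within a 1.5-fold difference in either direction, as it did for 50.9% of all tested genes. PARS2, mitochondrial prolyl-tRNA synthetase, was the exception. It averaged 4.95 (WT) and 4.52 CPM (IRF1-KO), and its interval ran from −0.81 to 0.55. Between WT libraries the coefficient of variation of CPM ran from 2.23% to 21.0% for the other cytosolic genes and from 3.33% to 25.0% for the mitochondrial genes, with 9.78% for WARS1. The sign of these small values was not stable, since 16 of the 34 changed sign in at least 1 alternative.

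Among all 35 genes, WARS1 and TARS2 had all 3 IRF1-KO libraries below all 3 WT libraries, and EARS2 had all 3 above. Over all tested genes such separation was seen for 14.8%, with 6.75% lower and 8.03% higher.

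Within the family, WARS1 stood lower in the IRF1-KO libraries. Relative to the median log2 CPM of the other 18 cytosolic synthetases, WARS1 was higher by 1.14, 1.47 and 1.32 log2 units in WT replicates 1 to 3. In IRF1-KO replicates 1 to 3 it was higher by 0.69, 0.57 and 0.18. The means were 1.31 ± 0.17 and 0.48 ± 0.27 (SD, n = 3 each), a difference of −0.83, and the groups did not overlap. This measure does not depend on scaling between libraries, because it is a ratio within each library.

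Levels of different genes were compared per kilobase of exon. On that scale WARS1 averaged 54.3 ± 5.31 CPM per kilobase in WT and ranked first of 19 cytosolic synthetases by the group mean. In WT replicate 1 it ranked second. In IRF1-KO it averaged 30.9 ± 5.4 CPM per kilobase and ranked seventh by the group mean, with ranks of 6, 7 and 10 in replicates 1 to 3. These ranks depend on the merged exon length of each gene. By CPM alone WARS1 ranked 1 in every WT library and 2, 2 and 8 in IRF1-KO replicates 1 to 3. WARS1 made up 9.12%, 11.3% and 10.1% of the summed cytosolic synthetase level per kilobase in the WT libraries. In the IRF1-KO libraries its share was 6.59%, 6.37% and 4.97%, below every WT library.

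The summed level of the whole cytosolic set overlapped between groups. It was 533 ± 9.93 CPM per kilobase in WT and 516 ± 16.9 in IRF1-KO (SD, n = 3 each). Without WARS1 it was 479 ± 13.3 and 485 ± 12.1. The mitochondrial sum was 147 ± 2.98 and 147 ± 4.67. Together the 35 genes took 0.340% of counts in WT and 0.334% in IRF1-KO.

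**Figure D2:**
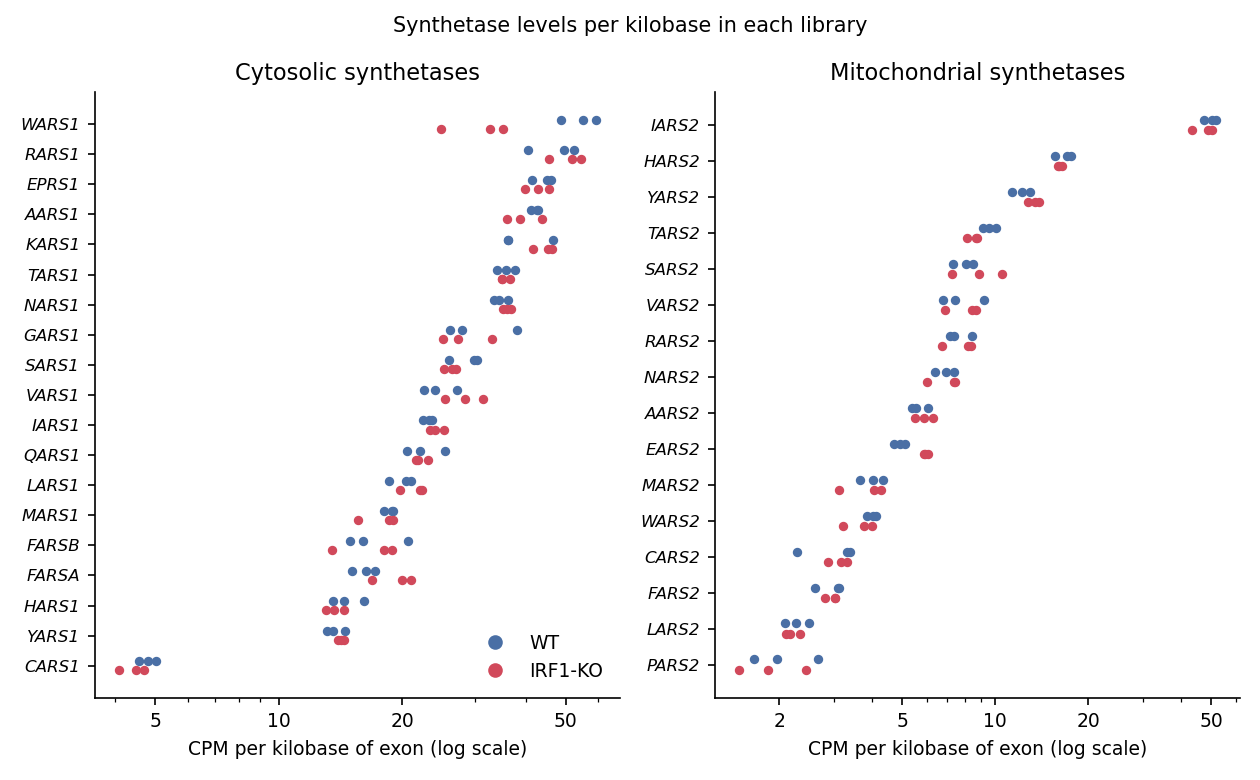
Level of each synthetase in each library, in CPM per kilobase of exon on a log axis, ordered by the WT mean within cytosolic and mitochondrial enzymes. WARS1 has the highest WT mean of the cytosolic enzymes, 54.3, and lies at 30.9 in IRF1-KO.

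In the WT libraries RARS1, the arginine enzyme, followed WARS1 at 47.4 ± 6.17 CPM per kilobase. EPRS1, which charges both glutamate and proline, stood at 44.2 ± 2.46, AARS1 at 42.1 ± 0.94 and KARS1 at 39.6 ± 5.94. CARS1, the cysteine enzyme, was the lowest at 4.80. Of the 18 pairs of neighbours in this order, 17 overlapped between libraries, so most of the order is not resolved. The exception was CARS1 below YARS1. That last place depends on the merged exon length, which is 10037 bases for CARS1. By WT mean CPM, FARSA (39.4) lay below CARS1 (48.2). Among mitochondrial enzymes IARS2, for isoleucine, led at 49.8 CPM per kilobase, ahead of HARS2 at 16.7 and YARS2 at 12.1. PARS2 was the lowest at 2.10, and 6 of 15 neighbouring pairs overlapped. In the IRF1-KO libraries 15 of 18 cytosolic and 10 of 15 mitochondrial neighbours overlapped.

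WARS2 (ENSG00000116874.11; GRCh38 chromosome 1, 119031216 to 119140671, minus strand) charges tryptophan in the mitochondrion. It was at 15.8, 15.4 and 14.8 CPM across the WT libraries and 15.4, 14.5 and 12.4 across the IRF1-KO libraries. The groups overlapped, and IRF1-KO replicate 3 was the lowest library for WARS2 as it was for WARS1. The log2 fold change was −0.13 ± 0.15 (SE; adjusted p = 0.864 with edgeR).

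The ratio of WARS1 to WARS2 per kilobase was 11.8, 14.8 and 14.3 in WT and 8.82, 8.71 and 7.71 in IRF1-KO. Of 15 cytosolic-to-mitochondrial pairs, 2 had ratios that did not overlap between groups. These were WARS1 to WARS2, with means of 13.6 and 8.41, and TARS1 to TARS2, the threonine enzymes, with means of 3.74 and 4.18. Among single tested genes 14.8% had no overlap, so this count of pairs is near that background.

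Among the other 18 cytosolic synthetases the median log2 fold change was −0.0222, and the range ran from −0.13 for SARS1 to 0.25 for FARSA. All 18 overlapped between groups. FARSA, the alpha subunit of the phenylalanine enzyme, was at 39.8, 36.7 and 41.8 CPM across the WT libraries and 48.5, 51.0 and 41.0 across the IRF1-KO libraries. IRF1-KO replicate 3 lay inside the WT range (0.25 ± 0.13; adjusted p = 0.627 with edgeR). FARSB, the beta subunit of the same enzyme, stood at −0.03 ± 0.17.

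VARS1, the valine enzyme, was at 160, 141 and 133 CPM across the WT libraries and 167, 185 and 149 across the IRF1-KO libraries, with IRF1-KO replicate 3 inside the WT range (0.21 ± 0.12; adjusted p = 0.702 with edgeR). SARS1, the serine enzyme, was at 99.8, 117 and 115 CPM across the WT libraries and 97.2, 102 and 104 across the IRF1-KO libraries. WT replicate 1 was low for SARS1 and lay within the IRF1-KO range (−0.13 ± 0.10; adjusted p = 0.793 with edgeR). CARS1 was at 48.2, 50.4 and 45.9 CPM across the WT libraries and 45.0, 47.1 and 40.9 across the IRF1-KO libraries, with overlap (−0.12 ± 0.11; adjusted p = 0.823 with edgeR). Apart from WARS1, FARSA, VARS1, SARS1, CARS1 and KARS1, the cytosolic genes lay between −0.11 (GARS1) and 0.10 (LARS1).

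The multi-synthetase complex holds 7 of the listed enzymes, EPRS1, IARS1, KARS1, LARS1, MARS1, QARS1 and RARS1. Their median log2 fold change was 0.07, with 4 positive and 3 negative, and none passed the threshold. KARS1, which serves the cytosol and the mitochondrion from a single gene, had the smallest p of the 7. It was at 189, 147 and 147 CPM across the WT libraries and 188, 169 and 184 across the IRF1-KO libraries. WT replicate 1 lay above all IRF1-KO libraries and the other WT libraries lay below them (0.16 ± 0.13; adjusted p = 0.793 with edgeR). GARS1, the glycine enzyme and the other one shared by both compartments, stood at −0.11 ± 0.17.

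By fold class the medians were also near zero. The 17 class I enzymes other than WARS1 had a median of 0.04 and the 16 class II enzymes one of −0.02. EPRS1, which joins a catalytic domain of each class, was counted in neither and stood at −0.05 ± 0.11.

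**Figure D3:**
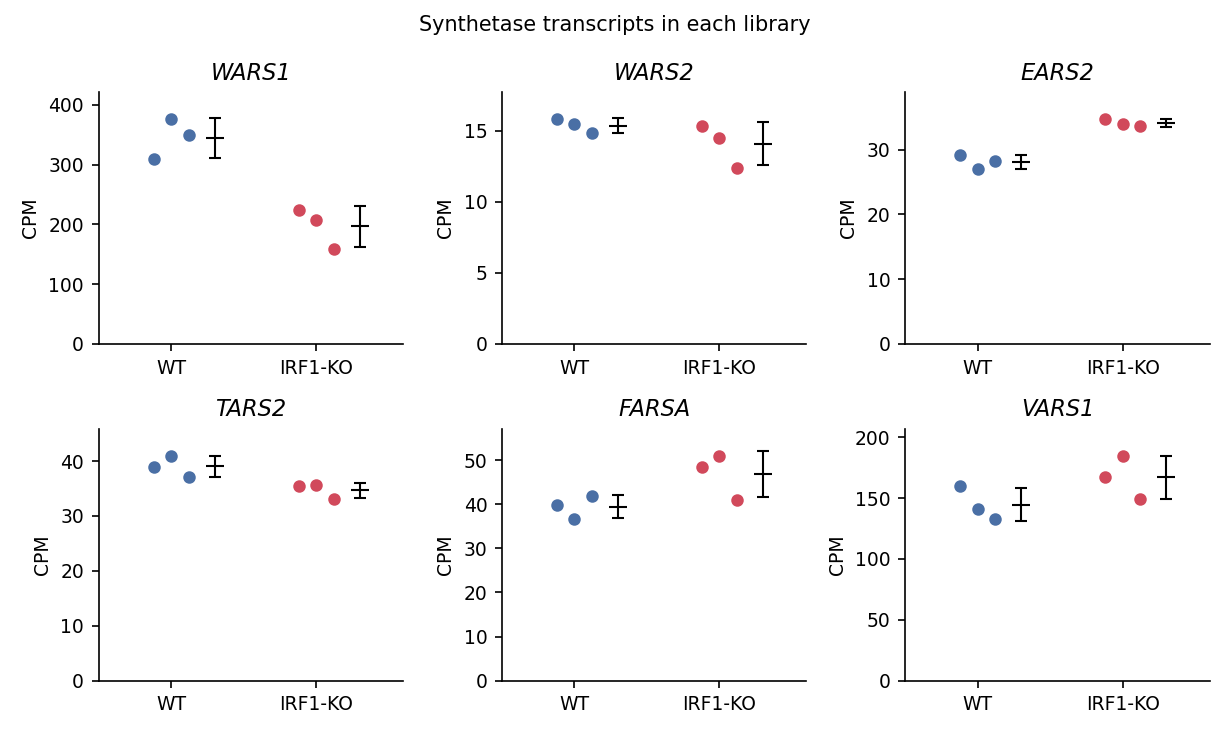
CPM of WARS1, WARS2, EARS2, TARS2, FARSA and VARS1 in each of the 6 libraries, WT in blue and IRF1-KO in red, on linear axes from 0, with the mean ± SD in black. WARS1 and TARS2 lie lower and EARS2 higher in all 3 IRF1-KO libraries, and the other panels overlap.

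The 16 mitochondrial synthetases had a median log2 fold change of 0.0080, with 9 positive and 7 negative. EARS2 (ENSG00000103356.15; GRCh38 chromosome 16, 23522014 to 23557731, minus strand) charges glutamate in the mitochondrion, and there also glutamine tRNA, which an amidotransferase then converts. It was at 29.2, 27.0 and 28.3 CPM across the WT libraries and 34.7, 33.9 and 33.7 across the IRF1-KO libraries. Each IRF1-KO library was above each WT library, at means of 28.2 ± 1.07 and 34.1 ± 0.55 CPM (SD, n = 3 each). EARS2 had a log2 fold change of 0.28 ± 0.10 (SE; adjusted p = 0.472 with edgeR).

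TARS2, the threonine enzyme, was at 39.0, 41.0 and 37.1 CPM across the WT libraries and 35.4, 35.6 and 33.1 across the IRF1-KO libraries. Its lowest WT library lay above its highest IRF1-KO library (−0.17 ± 0.11; adjusted p = 0.720 with edgeR). YARS2, for tyrosine, was at 26.2, 24.3 and 27.8 CPM across the WT libraries and 29.9, 27.6 and 28.9 across the IRF1-KO libraries, with overlap (0.14 ± 0.11; adjusted p = 0.794 with edgeR).

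SARS2, for serine, was at 26.0, 23.6 and 27.3 CPM across the WT libraries and 34.0, 28.6 and 23.4 across the IRF1-KO libraries. IRF1-KO replicate 3 was its lowest library (0.16 ± 0.16; adjusted p = 0.837 with edgeR). IARS2, for isoleucine, was at 214, 196 and 207 CPM across the WT libraries and 202, 179 and 207 across the IRF1-KO libraries. It overlapped between groups (−0.07 ± 0.11; adjusted p = 0.903 with edgeR). AARS2, for alanine, was at 29.1, 28.2 and 31.7 CPM across the WT libraries and 28.9, 33.1 and 30.7 across the IRF1-KO libraries, with overlap (0.06 ± 0.12; adjusted p = 0.926 with edgeR). Apart from EARS2, TARS2, YARS2, SARS2, IARS2, AARS2 and WARS2, the mitochondrial genes lay between −0.13 (PARS2) and 0.06 (CARS2).

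Reads of some members cannot be assigned with certainty. Exons of 10 synthetases overlap another gene in the table, and the strand setting of the counting is not given, so reads in the overlaps cannot be told apart. WARS1 overlaps WDR25 on the opposite strand, which averaged 8.68 (WT) and 8.26 CPM (IRF1-KO). EARS2 overlaps UBFD1, at 81.6 and 86.4 CPM, and HARS1 and HARS2 overlap each other. SARS2 overlaps MRPS12 on the opposite strand, which averaged 14.5 (WT) and 22.0 CPM (IRF1-KO). MRPS12 had the largest log2 fold change of the tested overlapping partners (0.60 ± 0.17, SE; adjusted p = 0.292 with edgeR). The part of this overlap in the SARS2 values was not tested. In all, 11 synthetases, WARS1 and WARS2 among them, have a named pseudogene in GENCODE 29, and reads shared with a near-identical copy are uncertain.

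GC content moved with the groups in these libraries. The median deviation of genes over 65% GC from their own mean was −0.53, −0.13 and −0.10 log2 CPM for the WT libraries and 0.08, 0.42 and 0.28 for the IRF1-KO libraries. Among the other synthetases 4 had transcripts over 60% GC, FARSA, SARS2, VARS1 and VARS2. Their median log2 fold change was 0.18, beside 0.24 over the 1994 tested genes over 60% GC. With an offset for GC content these medians were 0.0066 and 0.0010. VARS1 went from 0.21 to −0.02, VARS2 from 0.04 to −0.05, SARS2 from 0.16 to 0.03 and FARSA from 0.25 to 0.16. Other members whose values are given in every library also came closer to zero with the offset by more than 1.5 times. TARS2 went from −0.17 to −0.10, SARS1 from −0.13 to −0.06 and CARS1 from −0.12 to −0.04. WARS2 went from −0.13 to −0.08, IARS2 from −0.07 to −0.03 and AARS2 from 0.06 to 0.02. KARS1, at 0.20, and YARS2, also at 0.20, were farther from zero with it. Members without values in every library also moved both ways. For example, LARS1 (0.10 to 0.15), RARS1 (0.09 to 0.13) and IARS1 (0.07 to 0.11) moved away from zero. AARS1 (−0.10 to −0.02), GARS1 (−0.11 to −0.06) and PARS2 (−0.13 to −0.06) came closer. All values with the offset are in the right panel of the plot against GC content.

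The WARS1 transcript has 51.8% GC, near the 48.5% median of tested genes. With the same offset its log2 fold change was −0.74 ± 0.15 (SE; adjusted p = 0.222 with edgeR). EARS2, at 51.6% GC, stood at 0.35 with the offset, against 0.28 without it.

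**Figure D4:**
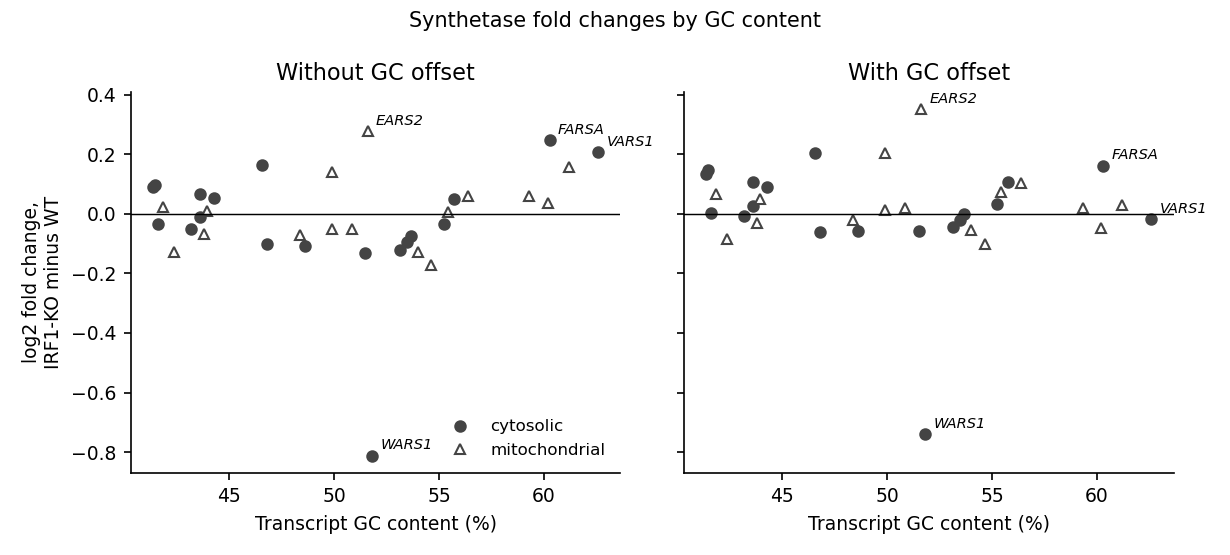
Log2 fold change of each synthetase, IRF1-KO against WT, against the GC content of its transcript, without (left) and with (right) the GC offset, cytosolic enzymes as filled circles and mitochondrial ones as open triangles. WARS1, at 51.8% GC, lies lowest in both panels, at −0.81 and −0.74. The 4 members over 60% GC are all positive on the left, and VARS1 (−0.02) and VARS2 (−0.05) are below 0 on the right.

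The partners of these enzymes showed no gene past the threshold. Of the 3 scaffold proteins of the multi-synthetase complex, AIMP1, AIMP2 and EEF1E1, none passed in edgeR or DESeq2, and 1 was higher at an unadjusted p of 0.05. EEF1E1 was at 46.3, 46.7 and 42.4 CPM across the WT libraries and 56.3, 54.0 and 55.5 across the IRF1-KO libraries. It was higher in every IRF1-KO library (0.29 ± 0.10, SE; adjusted p = 0.410 with edgeR). Of 4 mitochondrial charging partners, the glutamyl-tRNA amidotransferase subunits QRSL1, GATB and GATC and the formyltransferase MTFMT, none passed in edgeR, in DESeq2 or at an unadjusted p of 0.05. GATC had the smallest p of these, at 0.25 ± 0.14, with overlap between groups.

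A list for the proofreading and the delivery of charged tRNA, read together, had 12 tested genes of 13 listed. Their median log2 fold change was 0.06, and none passed in edgeR or DESeq2, with 1 higher at an unadjusted p of 0.05. That gene was EEF1D, a guanine exchange subunit of elongation factor 1, at 187, 223 and 239 CPM across the WT libraries and 282, 296 and 244 across the IRF1-KO libraries. All IRF1-KO libraries were above all WT libraries (0.34 ± 0.13; adjusted p = 0.496 with edgeR). Its transcript has 62.8% GC, and with the GC offset its log2 fold change was 0.12.

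Genes listed for the uptake and breakdown of tryptophan, the substrate of WARS1, had values on both sides of zero and none passed in edgeR. The list includes later steps of the breakdown. Of 16 tested genes of 19 listed, without adjustment 1 was higher and 1 lower at a p of 0.05. DESeq2 called 1 lower. IDO1, the interferon-induced enzyme that opens tryptophan breakdown, had 26, 100 and 48 counts in WT and 3, 9 and 0 counts in IRF1-KO. Every IRF1-KO library was lower, at a mean of 0.17 ± 0.16 CPM against 3.06 ± 2.11 (SD, n = 3 each). The adjusted p was 0.175 with edgeR and 0.000537 with DESeq2, and it ranged from 0.000537 to 0.492 over the alternatives.

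The 2 subunits of the LAT1 transporter, which imports tryptophan with other large neutral amino acids, were both higher in every IRF1-KO library. So were 8.03% of all tested genes, and 28.7% of those over 60% GC, where SLC7A5 lies at 61.1%. The other tested transporters of the list, SLC7A8, SLC6A14 and SLC36A4, overlapped between groups. SLC7A5, the light chain, was at 123, 91.7 and 106 CPM across the WT libraries and 140, 165 and 132 across the IRF1-KO libraries (0.45 ± 0.14; adjusted p = 0.363 with edgeR). SLC3A2, the heavy chain, was at 197, 193 and 254 CPM across the WT libraries and 261, 255 and 267 across the IRF1-KO libraries (0.28 ± 0.13; adjusted p = 0.581 with edgeR). SLC7A5 and SLC3A2 were both named after their values were seen, SLC3A2 as the partner of SLC7A5. With the GC offset SLC7A5 stood at 0.31 and SLC3A2 at 0.30.

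Many synthetase genes are known targets of ATF4. A separate list of ATF4 and amino acid response genes, with no synthetase in it, had 31 tested genes. None of them passed in edgeR or DESeq2. Without adjustment 1 was higher and 1 lower at a p of 0.05. The median log2 fold change was −0.0093. ATF4 itself stood at −0.05 ± 0.12 (SE), at 303, 312 and 261 CPM across the WT libraries and 284, 307 and 257 across the IRF1-KO libraries, with overlap. STC2, a stress-induced secreted protein, had the smallest p of the list (0.37 ± 0.15; adjusted p = 0.509 with edgeR).

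Genes that interferon-gamma induces as it does WARS1 were read beside it. Of 34 such tested genes, 11 fell and none rose in edgeR, where 0.112% of all tested genes fell. All 3 IRF1-KO libraries lay below all WT libraries for 28 of the 34, and for 6.75% of all tested genes. The list median was −1.08, beside −0.0175 over all tested genes. Of these 34 genes 26 had a log2 fold change below that of WARS1 and 21 had a smaller p. The list was drawn up with results of these libraries known, so its direction is not independent evidence.

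UBA7, the activating enzyme for ISG15, was at 17.1, 23.6 and 20.3 CPM across the WT libraries and 1.71, 2.41 and 2.77 across the IRF1-KO libraries (−3.13 ± 0.24; adjusted p = 0.00737 with edgeR). It passed in all 15 alternatives. GBP4, a guanylate-binding protein, fell by 3.19 on the log2 scale, APOL6, an apolipoprotein L, by 2.24, and ERAP2, a peptide-trimming aminopeptidase, by 1.74. Each of these 3 was at an adjusted p of 0.0711 (edgeR) without IRF1-KO replicate 1. GBP4 and ERAP2 were at 0.0659 without IRF1-KO replicate 3, and ERAP2 was at 0.0586 without WT replicate 2.

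**Figure D5:**
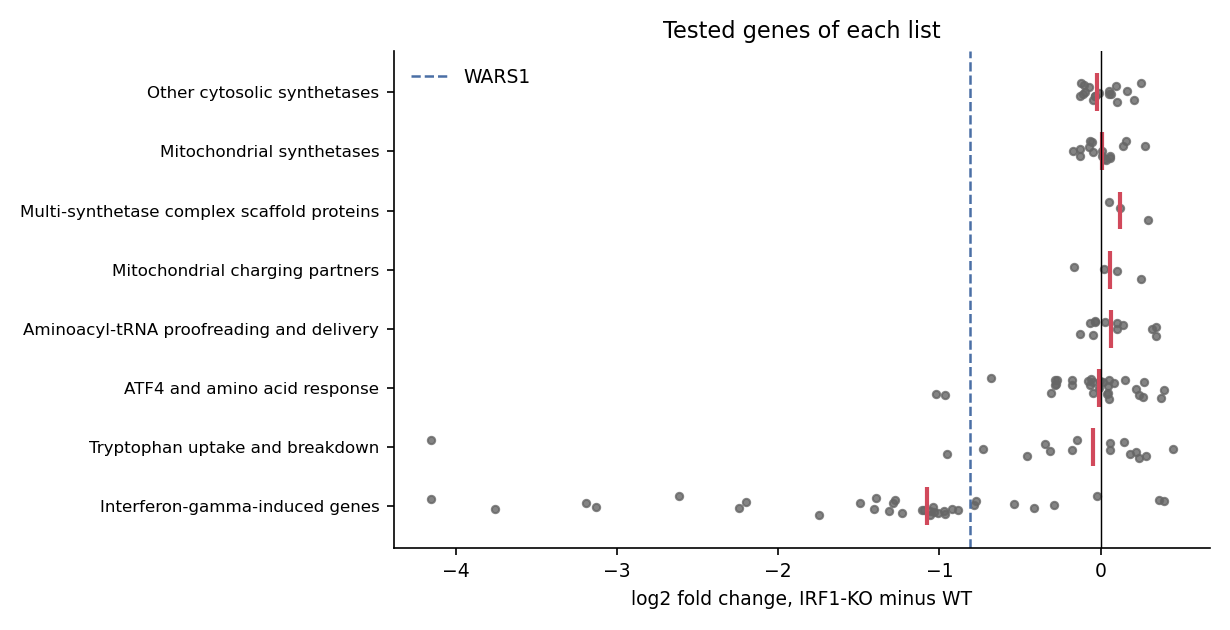
Log2 fold changes of the tested genes in each list, IRF1-KO against WT, 1 point per gene (vertical scatter within a list has no meaning), with the list median as a red bar and WARS1 as a dashed line. The interferon-gamma list has a median of −1.08, and the synthetases other than WARS1 centre near 0.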

How the data were processed

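Poly(A)-selected RNA of 6 libraries (3 WT and 3 IRF1-KO pools of clones) was counted by the authors. The deposited values are whole-number counts per gene, with exon coordinates and merged exon lengths, per the file headers. The tools named are featureCounts 0.6.1 and edgeR 3.2.2, and the build is GRCh38 (hg38), per the submitters' processing notes. Not given in the sources used here are the aligner, the annotation and the strand setting. Other cell lines and interferon-treated samples were not analysed here. Libraries of 1 group differed by a chi-square of 27.1 to 57.2 per degree of freedom, so no pair was within sampling noise.

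Tests were run in edgeR 4.0.16 under R 4.3.3 (filterByExpr, TMM, robust quasi-likelihood F test, two-sided, Benjamini-Hochberg over 13388 genes, threshold 0.05). Standard errors are those implied by the F statistic. CPM per kilobase used the deposited exon length. GC content came from GENCODE 29 transcripts. The scripts were tested on simulated data. The settings also tried were upper-quartile and RLE factors, a filter of 5 CPM in 3 libraries or no filter, DESeq2 1.42.0, voom in limma 3.58.1, the replicate number as a block, a spline offset for GC content, both together, and leaving out each library.

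The members and lists were chosen with earlier results of these data known. Values in every library were given for WARS1, WARS2, any synthetase past the threshold, up to 6 cytosolic and 6 mitochondrial synthetases with the smallest p, the extreme fold changes of each class and genes without overlap between groups. From each other list the rule took up to 4 genes past the threshold with the smallest p, or else the gene with the smallest p. KRT8, KRT18, KRT19, EPCAM, CFTR, PTPRC, FCGR3A, DCN, SLC7A5, SLC3A2, SLC7A8, SLC6A14, SLC36A4, WDR25, UBFD1, MRPS12, AARS2, PARS2, the genes named in the order of levels, AIMP1, AIMP2, ATF4, QRSL1, GATB, MTFMT, FARSB, GARS1, LARS1 and IARS1 were named outside this rule, after their values were seen. A list of interferon receptors and signal carriers is not reported here.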

Additional observations from a re-analysis of the deposited data

How the results depend on the processing

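WARS1 kept its direction in all 15 alternatives, at −0.89 to −0.68 on the log2 scale. Only DESeq2 put it past the threshold (−0.81, adjusted p = 0.000236), so that 1 synthetase was called there and 0 elsewhere. Leaving out 1 library at a time gave WARS1 −0.89 to −0.68. The number of all tested genes past the threshold was 17 with edgeR, 31 without a filter on low counts, 332 with DESeq2 and 3 to 91 when 1 library was left out (WT replicate 2 left out, 5; WT replicate 3 left out, 91; IRF1-KO replicate 1 or 3 left out, 3 each). The median of the other cytosolic synthetases was −0.0264 to 0.0570 when 1 library was left out, with the highest value without WT replicate 1, and the mitochondrial median was −0.0260 to 0.0211. The cause of these differences was not tested. A pairing of the samples by replicate number was not shown. Same-numbered libraries correlated at −0.0155, 0.253 and 0.0571, and not every sample correlated best with its own number. With 3 libraries per group these correlations cannot exclude a pairing. With the replicate block 31 genes passed, and WARS1 stood at −0.82 (adjusted p = 0.163, edgeR), or at −0.75 with the GC offset as well (adjusted p = 0.312). WARS1 relative to the other cytosolic synthetases was −0.93 to −0.68 when 1 library was left out and −0.77 with the GC offset. This within-library ratio comes from no fit, so the filters, the other tools and the block gave no value for it. PARS2 had the fewest counts of the 35 genes, 71 in 1 library, and the largest standard error, and the part of depth in that error was not tested.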
